A study of Mus musculus with 8 samples.

Results

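The Hox genes are the homeodomain transcription factor genes of the Hoxa, Hoxb, Hoxc and Hoxd clusters, and they were examined here in cultured mouse melanocytes, the pigment cells of the skin. Members were taken by name alone: every gene with a symbol made of Hox, a letter from a to d and a paralog number, provided that a probe set of the array carried that symbol only. This gave 36 genes, 9 of the Hoxa, 10 of the Hoxb, 9 of the Hoxc and 8 of the Hoxd cluster, among 22180 genes measured. The RefSeq gene table (GRCm38.p6) lists 39 Hox genes. The others had no probe set with a single symbol and were not analysed here. Of the members only Hoxb5 had more than 1 such probe set, and the brighter was used.

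The cells came from pups aged 1 to 5 days and had spent 22 days in melanocyte medium. Every culture carried floxed Atg7 alleles. The WT cells (Atg7 f/f) had no Cre, and the autophagy deficient KO cells (Atg7 f/f Tyr::Cre) carried Cre under the tyrosinase promoter, which acts in pigment cells. Whether Atg7 was intact in other cell types of these cultures was not measured. Cultures of both genotypes were either sham treated or given UVA-1 at 20 J/cm², and RNA was prepared after 6 h. The 8 arrays thus form 4 groups of 2 (WT and KO, each after sham and after UVA), each with an array numbered 1 and an array numbered 2, and the submitters describe the genotypes as done in biological duplicate. Values are log2 intensities, and a difference of 1 on this scale is a doubling.

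Hox proteins bind DNA through the homeodomain, usually beside cofactors of the TALE class (Pbx, Meis and Pknox proteins), and tell a cell where along the body axis it lies. Genes at the start of a cluster act towards the head and respond early to retinoic acid, genes at its end act towards the tail, and Polycomb and Trithorax complexes keep the pattern through cell division. Melanocytes descend from the neural crest, and dermal fibroblasts of different skin sites keep different sets of active Hox genes in culture.

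The arrays numbered 1 and 2 stood apart in all 4 groups, and the cultures held fibroblast RNA beside melanocyte RNA. All 12 melanocyte markers lay above background, with array means of 11.37 to 11.50 in number 1 and 12.19 to 12.61 in number 2. All 12 fibroblast markers did too, with array means of 11.58 to 11.73 in number 1, 9.38 and 9.56 in WT number 2 and 10.45 and 10.52 in KO number 2. Mast cell markers were above background for 0 of 5 genes, keratinocyte markers for 3 of 9, myeloid markers for 2 of 6, endothelial markers for 3 of 6, skeletal muscle markers for 5 of 6 and Schwann cell markers for 6 of 6. Every sample is labelled female, yet the Y-linked Eif2s3y, Kdm5d and Uty read 5.00 to 6.36 in the WT arrays of number 1 and 7.20 to 9.70 in the other 6 arrays, beside Xist at 11.81 to 12.40 in all 8. Atg7 read 9.95, 9.97, 9.75 and 9.70 in the WT arrays and 9.70, 9.65, 9.22 and 9.23 in the KO arrays. It was lower in KO in each of the 4 matched pairs, by 0.39 on average, and did not pass the test with the numbers as a block (limma, Benjamini-Hochberg adjusted p = 0.297). With 2 arrays a group, p-values measure only the spread between these arrays.

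Of the 36 Hox genes, 21 lay above background in all 4 groups and 9 in none. Background was the 95th percentile of the group means of 1105 olfactory receptor genes, a family with no known role in melanocytes, and was 6.59 to 6.70. The median of all genes was 7.31 to 7.32 in the groups, so most genes of the array lay above this background in each group. Counts above it, of Hox genes and of markers, are to be read beside that, and the 21 do not set Hox genes apart. The 21 were spread unevenly over the clusters, with 4 of 9 Hoxa, 8 of 10 Hoxb, 7 of 9 Hoxc and 2 of 8 Hoxd genes. By position, they were 6 of the 10 anterior genes (paralog groups 1 to 4), 8 of the 11 central genes (groups 5 to 8) and 7 of the 15 posterior genes (groups 9 to 13). The 9 genes above background in no group were Hoxa2, Hoxa3, Hoxb13, Hoxc11, Hoxd1, Hoxd9, Hoxd11, Hoxd12 and Hoxd13, 6 of them posterior. With the 99th percentile of the olfactory receptor genes, 7.59 to 7.69, only 6 members stood above background in all groups: Hoxb4, Hoxb5, Hoxb9, Hoxc6, Hoxc8 and Hoxd8.

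**Figure D1:**
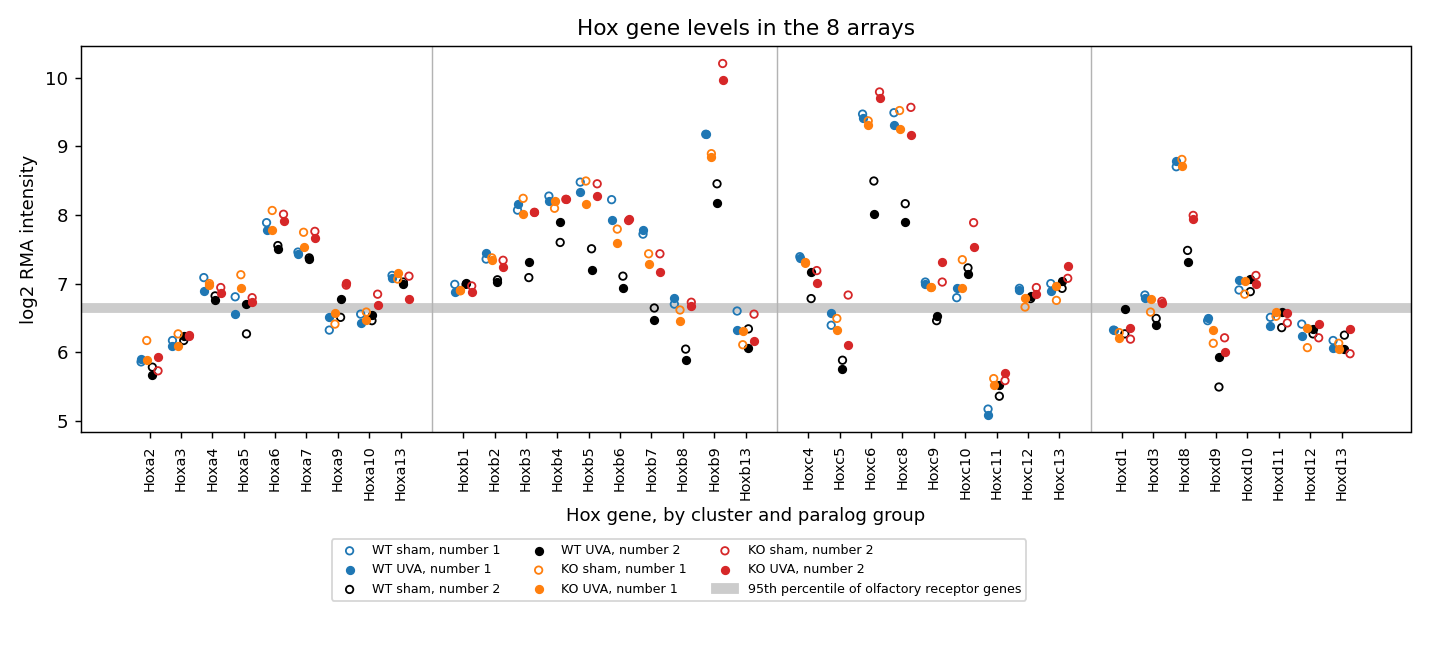
Log2 intensity (vertical axis) of the 36 Hox genes (horizontal axis, by cluster and paralog group) in the 8 arrays; open circles are sham arrays, filled circles UVA arrays, colours give genotype and number, and the grey band is the background of 6.59 to 6.70. The black points, WT number 2, lie lowest for the genes from Hoxb2 to Hoxb9, for Hoxc5 to Hoxc9 and for Hoxd8, and the red points, KO number 2, stand above all others at Hoxb9 and Hoxc6.

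Because probe sets differ in how strongly they bind, a gene is described here against itself in other arrays and not against its neighbours. In the Hoxa cluster the brightest probe sets were those of Hoxa6 and Hoxa7, which pattern the thoracic region, and of Hoxa13, which acts in distal limb and hindgut. Hoxa6 read 7.89 and 7.55 in WT sham, 7.77 and 7.51 in WT UVA, 8.07 and 8.01 in KO sham and 7.79 and 7.91 in KO UVA, numbers 1 and 2 in that order. Its lowest values were the WT arrays of number 2, and the genotypes overlapped. Hoxa13 stayed between 6.78 and 7.16 in all 8 arrays.

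In the Hoxb cluster the brightest were Hoxb9, Hoxb5 and Hoxb4. Hoxb4, which acts in the hindbrain and in blood stem cells, read 8.28, 8.21, 8.10 and 8.20 in the arrays of number 1 (WT after sham and UVA, then KO after sham and UVA, the order kept from here on) and 7.60, 7.89, 8.23 and 8.23 in those of number 2. Only the WT arrays of number 2 departed from the rest. The second probe set of Hoxb5 read 7.35 to 7.59 in all 8 arrays. Its WT arrays of number 2 were also its lowest, at 7.39 and 7.35, next to 7.43 in KO sham of number 1. The brighter probe set gave 7.51 and 7.20 in WT number 2 and 8.16 to 8.50 in the other arrays. The probe sets of this gene thus differ in the size of the drop.

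In the Hoxc cluster Hoxc6, Hoxc8 and Hoxc10 were brightest, and in the Hoxd cluster Hoxd8, Hoxd10 and Hoxd3. Hoxd10, a posterior gene of limb and lumbar patterning, read 6.91, 7.06, 6.85 and 7.03 in number 1 and 6.88, 7.07, 7.12 and 6.99 in number 2. Its numbers differed most in KO sham, at 6.85 and 7.12, and lay close together in the other groups, and the group means were 6.89 to 7.06. Hoxd3, an anterior gene, lay near background at 6.39 to 6.83, lowest in the WT arrays of number 2.

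Promoter sequences are shown for 3 members whose arrays behaved differently from each other: Hoxd8, lower in number 2 in both genotypes; Hoxb4, lower in WT number 2 only; and Hoxa7, split by genotype. Each is the 250 bases before the RefSeq transcript start, 5′ to 3′ on the strand of the gene. They lie in GRCm38.p6 at chr2:74704365-74704614 on the plus strand, chr11:96318017-96318266 on the plus strand and chr6:52218574-52218823 on the minus strand. Capitals mark AGGTCA, the core that retinoic acid receptors bind, read on either strand, so that it appears as TGACCT upstream of Hoxb4.
Hoxd8: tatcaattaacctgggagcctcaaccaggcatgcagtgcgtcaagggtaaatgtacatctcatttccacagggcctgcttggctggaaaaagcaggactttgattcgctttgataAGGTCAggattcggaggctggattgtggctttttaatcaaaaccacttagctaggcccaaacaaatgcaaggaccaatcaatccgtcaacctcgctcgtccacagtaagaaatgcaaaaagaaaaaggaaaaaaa
Hoxb4: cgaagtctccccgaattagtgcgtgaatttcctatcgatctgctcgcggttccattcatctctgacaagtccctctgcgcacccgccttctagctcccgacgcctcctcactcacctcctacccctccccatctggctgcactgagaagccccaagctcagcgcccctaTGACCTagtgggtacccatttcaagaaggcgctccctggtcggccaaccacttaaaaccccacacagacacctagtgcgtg
Hoxa7: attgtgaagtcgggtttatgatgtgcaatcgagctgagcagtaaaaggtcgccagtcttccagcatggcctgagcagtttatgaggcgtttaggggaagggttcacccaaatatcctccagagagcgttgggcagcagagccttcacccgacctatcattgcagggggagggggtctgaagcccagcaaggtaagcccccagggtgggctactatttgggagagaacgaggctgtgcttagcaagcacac

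RefSeq promoter windows of 300 bases, 250 before the start and 50 after it, were held for 22 Hox genes in 24 entries, 20 of them measured. AGGTCA, searched on both strands, was in 7 of the 24 Hox windows and in 16.3% of all 32851 windows. The Hox windows with it belonged to Hoxd10, Hoxd8, Hoxd3, Hoxd4, Hoxa5, Hoxb4 and Hoxc4. Of the 6 measured, Hoxd8, Hoxb4 and Hoxd3 had both WT arrays of number 2 below the other arrays and Hoxd10, Hoxa5 and Hoxc4 did not, the same share as among all 36 members. The Hox-Pbx composite TGATTNAT was in 2 of 24 (3.22% of all windows), the Meis core TGACAG in 2 (19.2%), the Cdx core TTTATGG in 1 (2.75%), the homeodomain palindrome TAATTA in 2 (5.29%), TATAAA in 4 (13.6%), the Mitf core CATGTG in 5 (14.2%) and the CREB palindrome TGACGTCA in 0 (1.79%). These motifs were counted without regard to overlap with each other. The Hox windows held a median of 14.5 CG dinucleotides against 7 in all windows. A match is only a run of letters in this window and says nothing on binding.

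No Hox gene passed the test between KO and WT. Averaged over both treatments, 0 of 36 had a Benjamini-Hochberg adjusted p under 0.05 in limma, beside 0% of all genes, and 2 had an unadjusted p under 0.05, beside 2.33% of all genes. Blocked by replicate number it was again 0 of 36, beside 0.0316% of all genes (7 genes), with 8 Hox genes at an unadjusted p under 0.05, beside 8.88% of all genes. The smallest adjusted p among Hox genes with the block was 0.376, for Hoxc10 (limma; KO above WT by 0.40 ± 0.09, SE). The same count of 0 was found after sham alone and after UVA alone, with and without the block, beside 0% of all genes in each case.

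Although no single gene passed, 29 of the 36 differences were above 0, and their median was 0.16 against -0.01 over all genes. Most of these values were larger in the arrays numbered 2, with exceptions such as Hoxc11 (0.44 in number 1 and 0.20 in number 2) and Hoxa5 (0.35 and 0.28). In number 2, 33 of 36 Hox genes were higher in KO, with a median of 0.28, and in number 1 it was 13 of 36, with a median of -0.04. The fibroblast markers had differences in the same arrays: their median KO minus WT difference was 0.56 on average, -0.01 in number 1 and 1.12 in number 2, and their part in the Hox values was not tested. In a mixed culture, more cells of a type and more RNA per cell cannot be told apart.

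The Hoxb and Hoxc clusters had the larger values. In number 2 the median KO minus WT difference was 0.27 for Hoxa, 0.74 for Hoxb, 0.53 for Hoxc and 0.05 for Hoxd genes, and in number 1 it was 0.07, -0.15, -0.07 and -0.06. The Hoxa cluster was the one with a median above 0 in both numbers, with 8 of 9 genes above 0 in number 1 and 8 of 9 in number 2. By position, the median in number 2 was 0.12 for anterior, 0.74 for central and 0.18 for posterior genes, and in number 1 it was -0.03, -0.07 and -0.04. All 11 central genes were higher in KO in number 2, and 4 of 11 in number 1. These differences between clusters and between positions are descriptions and were not tested.

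The largest differences were those of Hoxb9, Hoxc6 and Hoxc8, central to posterior genes of thoracic identity. Hoxb9 read 9.18, 9.17, 8.89 and 8.85 in number 1 and 8.46, 8.18, 10.21 and 9.97 in number 2. It was thus lower in KO in number 1, by 0.31 on the log2 scale, and 3.41-fold higher in KO in number 2. The average difference of 0.73 ± 0.44 (SE) did not pass the test (limma, adjusted p = 1).

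Hoxc6 read 9.47, 9.41, 9.37 and 9.32 in number 1 and 8.50, 8.02, 9.79 and 9.71 in number 2. The 4 arrays of number 1 lay close together, while in number 2 both KO arrays were the highest and both WT arrays the lowest of the 8. Its average difference was 0.70 ± 0.37 (SE; limma, adjusted p = 1), made of -0.10 in number 1 and 1.49 in number 2.

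Hoxc8, which controls vertebral and motor neuron identity in the trunk, read 9.49, 9.32, 9.52 and 9.26 in number 1 and 8.16, 7.90, 9.57 and 9.16 in number 2. Here the KO arrays of number 2 resembled both genotypes of number 1, and only the WT arrays of number 2 were low. The average difference was 0.66 ± 0.40 (SE; limma, adjusted p = 1), with -0.02 in number 1 and 1.33 in number 2. At the other end Hoxd1, Hoxb1 and Hoxd12 had the most negative averages, -0.12, -0.06 and -0.05, each with an adjusted p of 1 in limma.

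**Figure D2:**
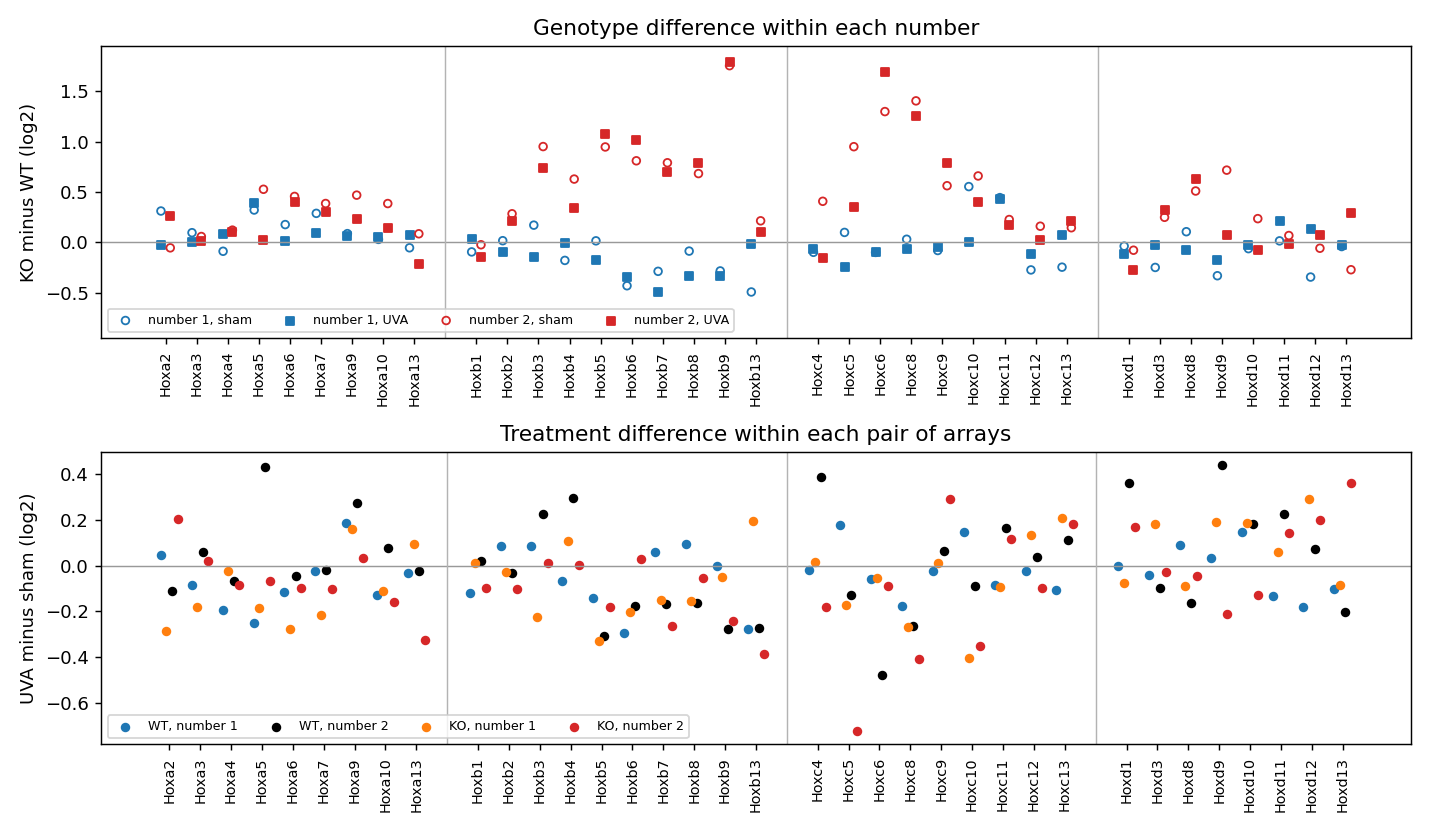
Upper panel: KO minus WT log2 difference of each of the 36 Hox genes for sham (open circles) and UVA (filled squares), number 1 in blue and number 2 in red. Lower panel: UVA minus sham log2 difference within each of the 4 pairs of arrays. The red points lie above the blue from Hoxb3 to Hoxb9 and from Hoxc5 to Hoxc9, up to a mean of 1.77 at Hoxb9, while from Hoxa2 to Hoxa10 both colours lie near or above 0; in the lower panel the 4 points of most genes lie on both sides of 0.

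Hoxa7 was the only member whose 4 KO arrays all lay above its 4 WT arrays (1 of 36, beside 0.866% of all genes), and no member had all 4 KO arrays below (0.942% of all genes). It read 7.46, 7.43, 7.38 and 7.36 in WT (sham and UVA of number 1, then of number 2) and 7.75, 7.53, 7.76 and 7.66 in KO. The genotypes were separated by a narrow gap, and the difference of 0.27 ± 0.08 (SE) did not pass the test (limma, adjusted p = 1, and 0.477 with the block). A further probe set assigned to Hoxa7 together with Mira, a non-coding RNA of the same locus, read 6.52 to 6.81 in WT and 7.04 to 7.54 in KO, again without overlap.

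KO exceeded WT in both treatments of both numbers for 6 of the 36 members, 16.7%, beside 7.65% of all genes. They were Hoxa5, Hoxa6, Hoxa7, Hoxa9, Hoxa10 and Hoxc11, of which only Hoxa6 and Hoxa7 were above background in all groups. Hoxd1 alone was lower in KO in all 4 matched pairs (7.78% of all genes). Hoxc10 had the smallest blocked p, and it read 6.79, 6.94, 7.35 and 6.94 in number 1 and 7.23, 7.14, 7.89 and 7.54 in number 2. Its KO arrays were the higher in number 2 and after sham in number 1, and equal to WT after UVA in number 1.

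No Hox gene passed the test for UVA-1. Averaged over genotypes 0 of 36 passed in limma, beside 0% of all genes without a block, 0.0135% with the replicate block and 0.437% with each culture as a block (taken to be the arrays of a genotype and number, which the labels do not state). In WT alone it was 0 of 36 in all 3 fits (0%, 0.00451% and 0.0541% of all genes), and in KO alone 0 of 36 (0%, 0.00902% and 0.00902%). Unadjusted, 0, 0 and 2 Hox genes had a p under 0.05 in the 3 averaged fits, beside 1.81%, 6.54% and 12.6% of all genes. The interaction of genotype and treatment called 0 of 36 Hox genes and 0% of all genes in each fit. The median UVA minus sham difference was -0.04 over the Hox genes and 0.00 over all genes, with 14 of 36 above 0.

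Within the 4 pairs of arrays, 7 of 36 members were lower after UVA every time, beside 9.08% of all genes, and 1 was higher every time, beside 10.6%. The 7 were Hoxa4, Hoxa6, Hoxa7, Hoxb5, Hoxb9, Hoxc6 and Hoxc8, all of them above background in all groups, and 5 of them are central genes. Hoxc8 had the most negative average, -0.28 ± 0.06 (SE with the culture as a block; limma, adjusted p = 0.0976), made of -0.17, -0.26, -0.27 and -0.41 in WT 1, WT 2, KO 1 and KO 2. Hoxb5 followed with -0.24 ± 0.07 (limma with the culture as a block, adjusted p = 0.207), made of -0.14, -0.31, -0.33 and -0.18. Neither Hoxc8 nor Hoxb5 passed the test. The Hoxb5 values are those of its brighter probe set. Its second probe set rose after UVA in WT 1 (7.48 to 7.54), KO 1 (7.43 to 7.59) and KO 2 (7.48 to 7.52) and fell in WT 2 (7.39 to 7.35). Hoxc5 came next at -0.21, but its pairs ranged from 0.18 to -0.72.

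The member above sham in all pairs was Hoxa9, a posterior gene known from blood cell development, with 0.19, 0.27, 0.16 and 0.03 and an average of 0.16 ± 0.08 (SE; limma with the culture as a block, adjusted p = 0.459). Hoxd9 and Hoxd1 had the next largest averages, both 0.11, with pairs on both sides of 0 or at 0. By position, 0 of 11 central genes had a UVA average above 0, against 5 of 10 anterior and 9 of 15 posterior genes. The corresponding medians were -0.13, -0.01 and 0.03, which is small beside the spread between pairs, and the difference between positions was not tested.

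The only comparison in which Hox genes passed the test was that of the arrays numbered 2 and 1, which is no condition of the study. It compares sets of 4 arrays, and sham and UVA arrays of the same genotype and number may share a culture. With the group in the model, 3 of 36 Hox genes passed limma's test at an adjusted p under 0.05, beside 30.3% of all genes. With 1 averaged value per culture, 1 of 36 passed, beside 11.2%.

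Hoxd8, a central gene of the trunk, was 1 of the 3. It read 8.70, 8.79, 8.81 and 8.72 in number 1 and 7.48, 7.32, 7.99 and 7.95 in number 2. All 4 arrays of number 2 were below all 4 of number 1, WT furthest. It fell by 1.07 ± 0.13 (SE; limma, adjusted p = 0.00101), 2.10-fold, and passed with averaged cultures too (adjusted p = 0.0330). Hoxc10 rose by 0.44 ± 0.09 (limma, adjusted p = 0.00909) and Hoxa9 by 0.37 ± 0.09 (limma, adjusted p = 0.0187), and with averaged cultures these did not pass (adjusted p = 0.0845 and 0.119). Hoxa9 read 6.32, 6.51, 6.41 and 6.57 in number 1 and 6.51, 6.78, 6.98 and 7.01 in number 2, near background, and the ranges of the numbers overlapped. The ranges of Hoxc10 overlapped too, with KO sham of number 1 at 7.35 above the WT arrays of number 2 at 7.23 and 7.14.

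Most other members were lower in number 2 in WT, with 10 of 36 differences above 0, but not in KO, with 24 above 0. The median number 2 minus number 1 difference of the 36 genes was -0.23 in WT and 0.06 in KO, against 0.01 and 0.00 over all genes. In WT the medians were -0.09 for Hoxa, -0.82 for Hoxb, -0.41 for Hoxc and -0.01 for Hoxd genes, and in KO they were 0.04, 0.06, 0.17 and 0.04. The central genes had a median of -1.06 in WT and 0.04 in KO, the anterior genes -0.28 and -0.03, and the posterior genes -0.01 and 0.16. No test was made of these differences between the genotypes, for which each number gives 1 sham and 1 UVA array.

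**Figure D3:**
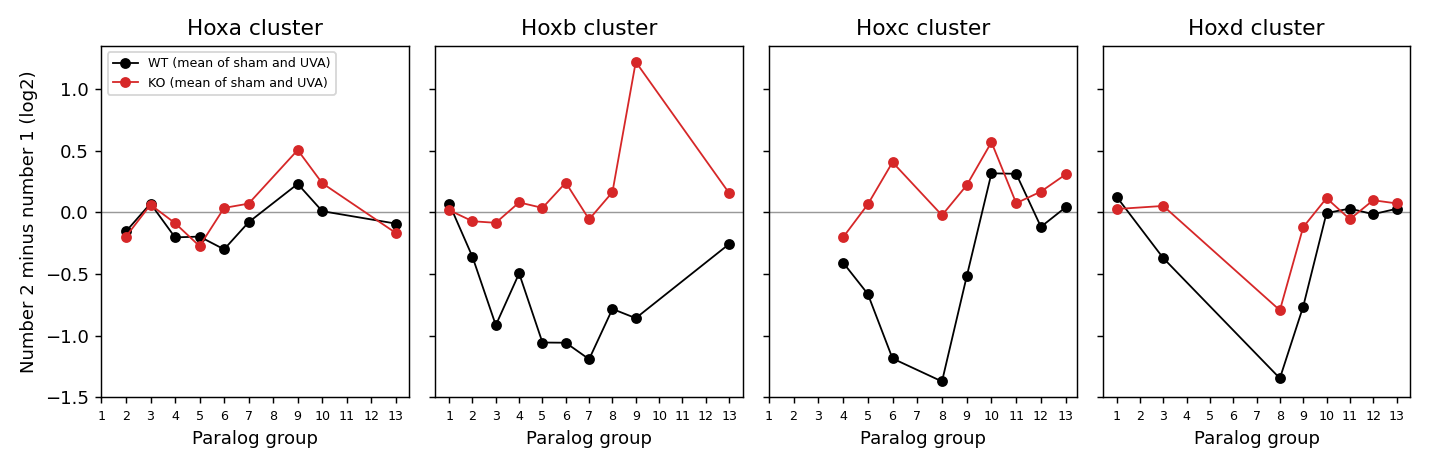
Number 2 minus number 1 log2 difference (vertical axis) by paralog group (horizontal axis) in each cluster, WT in black and KO in red, each point the mean of sham and UVA. In WT the curve dips to -1.19 at Hoxb7, -1.37 at Hoxc8 and -1.35 at Hoxd8 and returns towards 0 at the posterior end, while the KO points furthest from 0 are Hoxb9 at 1.22, Hoxd8 at -0.79, Hoxc10 at 0.57, Hoxa9 at 0.50 and Hoxc6 at 0.41.

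After Hoxd8, the largest differences averaged over all groups were those of Hoxc8, Hoxb7, Hoxb5 and Hoxb3, none of which passed the test. Hoxb7, a central gene of thoracic identity, read 7.72, 7.78, 7.43 and 7.29 in number 1 and 6.64, 6.48, 7.43 and 7.17 in number 2. Only its WT arrays of number 2 lay near background. Hoxb5, which acts in the neural crest and the gut, read 8.48, 8.34, 8.50 and 8.16 in number 1 and 7.51, 7.20, 8.46 and 8.28 in number 2, with the same outlying pair. Hoxb3, an anterior gene of the hindbrain, read 8.07, 8.16, 8.24 and 8.02 in number 1 and 7.09, 7.31, 8.04 and 8.05 in number 2. The average differences were -0.70 ± 0.26 for Hoxc8, -0.62 ± 0.23 for Hoxb7, -0.51 ± 0.22 for Hoxb5 and -0.50 ± 0.17 for Hoxb3 (SE; limma, adjusted p from 0.0725 to 0.134).

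The pattern with both WT arrays of number 2 below the other 6 arrays was chosen after the values had been seen. It held for 18 of 36 Hox genes, 50%, beside 11% of all genes, and the opposite pattern held for 0 of 36, beside 14.7%. The 18 were Hoxa4, Hoxa6 and Hoxa7, every Hoxb gene from Hoxb2 to Hoxb9, Hoxc5, Hoxc6, Hoxc8 and Hoxc9, and Hoxd3, Hoxd8 and Hoxd9. They included 10 of the 11 central genes, with Hoxa5 the exception, and 14 of the 18 were above background in all groups. A probe set shared by Hoxb3 and Hoxb2 did not have the pattern. It read 6.54 in both WT arrays of number 2 and 6.38 to 6.73 in the others, near background. Shared probe sets of Hoxa7 with Mira, of Hoxb4 with Mir10a and of Hoxd3 with Hoxd4 did have it, as did the second probe set of Hoxb5. The gap was clear for Hoxd3 with Hoxd4, at 7.15 and 6.88 against 7.77 to 7.92. It was narrow for Hoxa7 with Mira, at 6.71 and 6.52 against 6.73 to 7.54. For the second Hoxb5 probe set it was narrow too, at 7.39 and 7.35 against 7.43 to 7.59. The probe set of Hoxb4 with Mir10a read 3.46 to 4.09, far below background. All 4 arrays of number 2 lay below all 4 of number 1 for Hoxb2, Hoxc4 and Hoxd8 (15.5% of all genes), and above for 0 (16.6%).

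**Figure D4:**
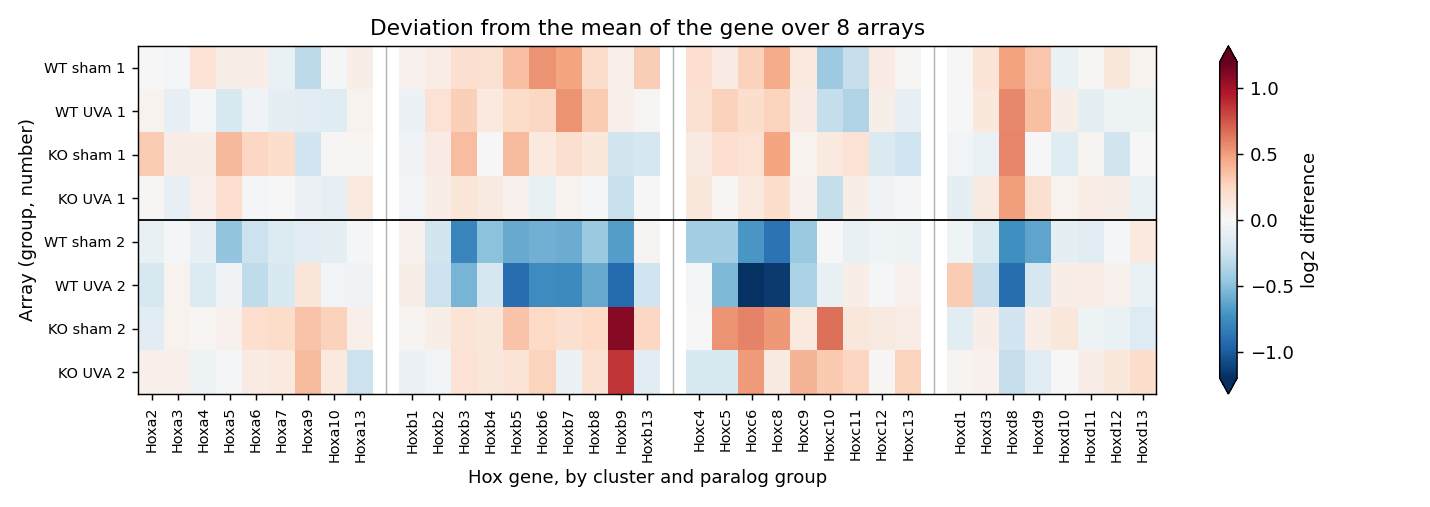
Log2 deviation of each Hox gene (columns, by cluster and paralog group) from its own mean over the 8 arrays (rows, number 1 above the black line and number 2 below), red above and blue below the mean. The block of blue is in the WT rows of number 2 from Hoxb2 to Hoxb9 and Hoxc5 to Hoxc9 and at Hoxd8, and the deepest red is Hoxb9 in the KO rows of number 2.

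How the arrays deviate from the mean of their group was also compared between groups. Over all genes these deviations had correlations of 0.80 to 0.92 in every pair of groups. Over the Hox genes the correlation was 0.90 between WT sham and WT UVA and 0.71 between KO sham and KO UVA, but 0.03 to 0.24 between genotypes. These are descriptions over 36 genes of the same arrays.

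Fibroblast markers were lowest in the same arrays as the Hox genes of this pattern, but they were also lower in KO number 2 than in number 1. Of the 12, 10 were lower in number 2 (limma, adjusted p under 0.05), with a median of -2.15 in WT and -1.14 in KO. Of the 12 melanocyte markers, 11 were higher, with medians of 1.25 and 0.71. Over all genes 30.3% passed in either direction. Hoxd8 had this order of arrays, whereas Hoxb9 was 1.22 higher in number 2 in KO, where fibroblast markers were lower. Which cells carried the Hox RNA was not tested.

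**Figure D5:**
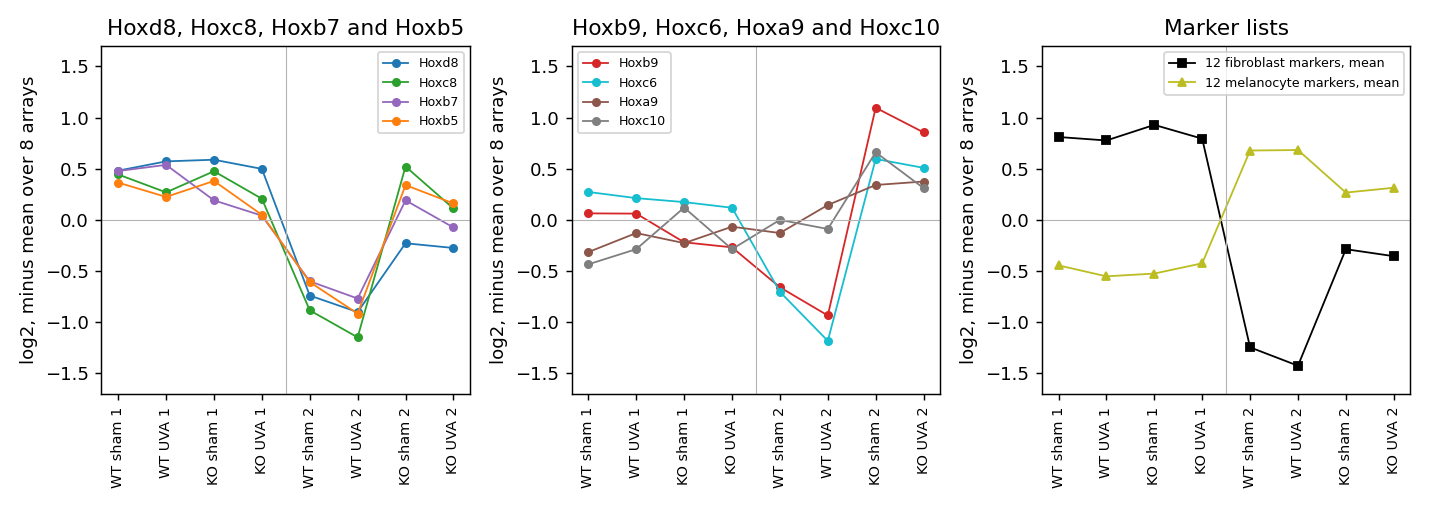
Log2 level in each of the 8 arrays minus the mean over the arrays, for Hoxd8, Hoxc8, Hoxb7 and Hoxb5 (left), for Hoxb9, Hoxc6, Hoxa9 and Hoxc10 (middle) and for the means of 12 fibroblast and 12 melanocyte markers (right); lines only join the points of a gene or list. Hoxd8 and the fibroblast mean are below 0 in all 4 arrays of number 2, while Hoxb9 and Hoxc6 are below 0 in the WT arrays and highest in the KO arrays of number 2.

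Hox cofactors and regulators did not pass the test for genotype or, in the fits without a block and with the replicate block, for UVA. This held for 8 TALE cofactors, 19 genes of retinoic acid signalling, 26 Polycomb genes, 17 Trithorax and MLL genes, 37 other positional transcription factors, 7 non-coding RNAs of the clusters and 15 neighbouring genes. With the culture as a block, 0.437% of all genes passed for UVA, and a single call in lists this long is near that share. The 1 gene of these lists was Dot1l, the histone H3 lysine methyltransferase that works with MLL fusion partners, and it rose. It went from 10.38 to 10.62 and from 10.42 to 10.75 in WT and from 10.28 to 10.66 and from 10.10 to 10.46 in KO. Every pair moved the same way, by 0.33 ± 0.05 on average (SE; limma, adjusted p = 0.0332).

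Between the numbers, 30.3% of all genes passed the test, and the counts of the lists that follow are to be read beside that share. Of 8 TALE genes, 2 were higher and 3 lower in number 2 (limma, adjusted p under 0.05). Meis1, which binds DNA with Hox and Pbx proteins, read 9.87, 9.66, 9.60 and 9.46 in number 1 and 8.08, 7.97, 8.44 and 8.31 in number 2. It was low in both genotypes, unlike Hoxb7 or Hoxc8, and fell by 1.45 ± 0.13 (SE; limma, adjusted p = 0.000305). Its paralog Meis2 read 10.30, 10.02, 10.17 and 9.95 in number 1 and 10.91, 11.03, 10.47 and 10.32 in number 2, a rise of 0.57 ± 0.12 (limma, adjusted p = 0.0101), larger in WT. Meis2 and Pknox2 had the largest KO minus WT differences of the list, -0.34 and -0.26, with adjusted p of 0.537 and 0.548 in limma with the block.

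Of the 19 genes of retinoic acid signalling, 6 were higher and 5 lower in number 2, beside 30.3% of all genes in either direction. The synthesis enzymes Aldh1a1, Aldh1a2 and Aldh1a3 and the degrading enzyme Cyp26b1 fell, by 1.59, 0.52, 0.67 and 0.50. The receptors Rarb and Rarg rose by 0.93 and 0.57, and the binding protein Crabp2 by 1.62 (limma, adjusted p from 3.6e-05 to 0.0342 over these 7). Aldh1a1 read 11.44, 11.44, 11.60 and 11.63 in number 1 and 9.38, 8.97, 10.80 and 10.58 in number 2, with the WT arrays of number 2 lowest as for Hoxc8. Cyp26b1 was higher in KO in all 4 pairs, by 0.57 on average (limma with the block, adjusted p = 0.235).

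Of the Polycomb genes, 5 of 26 were higher and 3 lower in number 2, and of the Trithorax and MLL genes 4 of 17 were higher and 3 lower, beside 30.3% of all genes in either direction. Ezh2, the H3K27 methyltransferase that represses Hox clusters, rose by 0.98 ± 0.10 (SE; limma, adjusted p = 0.000594). It read 9.64 to 9.78 in number 1, 10.94 and 10.82 in WT number 2 and 10.54 and 10.49 in KO number 2. Wdr5, a core subunit of MLL complexes, fell by 0.71 ± 0.07 (limma, adjusted p = 0.000532). The 3 Polycomb genes called lower and the 4 Trithorax and MLL genes called higher went the other way from Ezh2 and Wdr5. No test linked any of these genes to the Hox genes.

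Of 37 other transcription factors of position, 12 were lower and 7 higher in number 2, beside 30.3% of all genes in either direction. Emx2, Tbx3 and Prrx1, factors of shoulder girdle, limb and mesenchyme patterning, fell by 1.98, 1.88 and 1.67 (limma, adjusted p = 0.000205, 0.000142 and 0.00138). Tbx15, known for dorsoventral skin patterning, read 10.71, 10.74, 10.64 and 10.70 in number 1 and 8.71, 8.41, 10.05 and 9.91 in number 2. Tbx5, a forelimb factor, read 7.45, 7.51, 7.20 and 7.26 in number 1 and 6.57, 6.46, 8.23 and 7.91 in number 2. Its arrays had the order of Hoxb9, lowest in WT number 2 and highest in KO number 2. The KO minus WT averages of Tbx15 and Tbx5, 0.68 and 0.65, were the largest of the list and did not pass (limma with the block, adjusted p = 0.565 and 0.625).

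Of the genes that flank the clusters in RefSeq (GRCm38.p6), 15 were measured, and 4 were higher in number 2 and 0 lower, near the 30.3% of all genes. The 4 were Snx10 (Hoxa cluster), Atp5g2 and Cbx5 (Hoxc cluster) and Evx2 (Hoxd cluster), by 0.58, 0.35, 0.58 and 0.28. Cbx5 encodes a heterochromatin protein. Mtx2, next to Hoxd1, and Calcoco1, next to Hoxc13, had the largest KO minus WT averages, both 0.21 (limma with the block, adjusted p = 0.548 and 0.496).

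Among the non-coding RNAs, 7 of 17 listed were measured and 0 passed any test. Hotair, transcribed antisense within the Hoxc cluster, read 6.48 to 6.81 in the 8 arrays, and Hoxd3os1 read 7.12 to 7.56. The clusters also hold the genes of miR-10 and miR-196, which are shown because each pair of paralogs shares its seed, bases 2 to 8, given in capitals (RefSeq, GRCm38.p6).
mmu-miR-10a-5p: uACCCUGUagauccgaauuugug
mmu-miR-10b-5p: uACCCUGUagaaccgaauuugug
mmu-miR-196a-5p: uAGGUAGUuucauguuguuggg
mmu-miR-196b-5p: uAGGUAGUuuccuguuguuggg

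The arrays measure precursor transcripts and not these mature forms. Mir10b read 3.70 to 4.25, Mir615 6.02 to 6.49, Mir196a-1 5.67 to 6.69 and Mir196a-2 5.17 to 6.09, at or below background. Mir196a-1 and Mir196a-2 had the largest KO minus WT averages of the list, 0.35 and 0.25, and did not pass (limma with the block, adjusted p = 0.477 and 0.599). miR-196 is known to cleave Hoxb8 RNA. Hoxb8 read 6.70, 6.79, 6.61 and 6.46 in number 1 and 6.04, 5.88, 6.73 and 6.67 in number 2, near background throughout.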

How the data were processed

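RNA of 8 samples, grouped and numbered by their titles, was hybridised to 1-colour Affymetrix whole-transcript arrays. The authors deposited an intensity for each probe set of each array, made by robust multi-array averaging (RMA) in Affymetrix Expression Console 1.3.1.187, per the submitters' processing notes. The scale is linear, with whole numbers between 7 and 22585. The planned tests assumed a log2 scale, so the values were converted to log2 first. Quantile normalization within RMA would hide a change of most transcripts in 1 direction, and rounding coarsens dim probe sets. The genome build of the annotation is not given in the sources used here.

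Of 41345 probe sets, 23521 had a single gene symbol, and the brightest per gene was kept (22180 genes, no filter on level). Array medians were 110 to 115. Groups were compared in R 4.3.3 by limma 3.58.1 (4 group means fitted over the 8 arrays, eBayes with a trend, two-sided, Benjamini-Hochberg over all genes, threshold 0.05), in 8 comparisons, and the script was tested on simulated data. Alternatives were the replicate number or each culture as a block, averaged cultures, a filter on dim genes, the mean of probe sets, eBayes without a trend, median centring, other background levels and leaving out each array.

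The shared numbers in the titles were checked for pairing. Over all genes, how arrays deviate from their group mean had correlations of 0.80 to 0.92 in all 6 pairs of groups, and the numbers were therefore read as pairs. Over the Hox genes alone the correlations between genotypes were only 0.03 to 0.24, so for these genes a number effect common to both genotypes was weak. What a number stands for is not in the labels. In the genotype comparison with a block, the arrays of 1 culture count as separate samples.

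The Hox genes, the other gene lists, the classes and the tests were chosen with earlier results of these data known. Named in full are the 3 brightest Hox genes of each cluster, the 5 with the largest difference between numbers, the 3 highest and 3 lowest for genotype and for UVA, and any past the test. From other lists only examples are given, of genes past the test and of the 2 largest for genotype in each list. Further genes are named as members of counts, and Hoxb8, Ezh2, Hotair, Mir10b, Mir615, Hoxd3os1 and the patterns over arrays were picked after their values were seen.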

Additional observations from a re-analysis of the deposited data

Results flagged for a closer look

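Hoxd12, a posterior gene above background in no group, differed between KO and WT in opposite directions after sham and after UVA. After sham both KO arrays were below their WT partners, at 6.07 against 6.41 and 6.21 against 6.27, and after UVA both were above, at 6.36 against 6.23 and 6.41 against 6.34. The genotype difference after UVA exceeded that after sham by 0.299 ± 0.15 on the log2 scale (SE), which as an interaction term in limma had an adjusted p of 1.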

How the results depend on the processing

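Hox genes passing the test for genotype, UVA or their interaction numbered 0 under every alternative run. Over all genes, against 0 without a block, the replicate block called 7 for genotype, 3 for UVA averaged, 1 for UVA in WT and 2 in KO, and the culture as a replicate block called 97, 12 and 2 for UVA; the block changed no call of a Hox gene. With cultures averaged, the number comparison called 2493 genes, 1 of them Hox, against 6714 and 3. Leaving out each array in turn gave 4587 to 5521 genes and 2 to 4 Hox genes. Hox genes above background fell from 21 to 6 with the 99th percentile and to 10 with the median of all genes. The median Hox difference ranged over those left-out arrays from -0.0980 to 0.0651 for UVA averaged, -0.152 to 0.157 in WT, -0.0695 to -0.0151 in KO, -0.172 to 0.170 for the interaction and -0.193 to -0.0586 for the numbers, and for genotype from 0.0313 to 0.228 averaged and -0.0304 to 0.341 after sham. UVA differences turned sign for Hoxb5 (-0.525 to 0.0455), Hoxc8 (-0.633 to 0.0749) and Hoxd9 (-0.128 to 0.356) when 1 array was left out. Those fits had no block, so leaving out an array unbalanced the numbers. Within the 4 pairs of arrays Hoxc8 and the brighter probe set of Hoxb5 were lower after UVA every time, and Hoxd9 was not. Without genes below the median level, 10 Hox genes were tested, with medians of -0.138 for UVA averaged, -0.110 in WT, -0.126 in KO and -0.399 for the numbers. Precision is limited by 2 arrays a group and by probe sets near background, which hold 15 of the 36 genes.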
